A study of Mus musculus with 4 samples.

Results

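T and natural killer (NK) cells made up 409 of 19134 cells that passed the filters in 4 single-cell RNA libraries of mouse tibial bone marrow. They were chosen by their own marker transcripts, from raw counts of unique molecular identifiers (UMIs, each standing for 1 captured RNA molecule). A cell had to carry at least 4 UMIs, from at least 2 genes, of 8 marker genes. These were Cd3e, Cd3d and Cd3g (signalling chains of the T cell receptor complex), Trbc1 and Trbc2 (constant regions of the T cell receptor beta chain), Nkg7 (a cytotoxic granule protein of NK and killer T cells), Klrb1c (the NK1.1 receptor) and Il2rb (a receptor chain for interleukin-2 and interleukin-15). Cells with 3 or more UMIs of the B cell receptor genes Cd79a and Cd79b were left out, as were cells with any UMI of Cdh5 (endothelial), Siglech (plasmacytoid dendritic) or Mcpt8 (basophil) and cells with 3% or more of their UMIs from the neutrophil genes S100a8 and S100a9. The levels of the 8 marker genes therefore describe the choice and support nothing further.

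Each of the 4 groups was 1 library of pooled mice of the C57Bl/6JCrl strain, from the tibia. The control genotype carried Vegfc flox/flox, a conditional allele of the gene for the vessel growth factor VEGF-C, and the Vegfc-deleted genotype carried RosaCreERT2 as well, which places a Cre that works only after tamoxifen under the Rosa26 promoter. That promoter is active in most cell types, so the deletion was not directed to 1 tissue. The labels give 5 intragastric tamoxifen doses at 7 to 8 weeks of age for both genotypes, although another line of the labels names tamoxifen for only part of the samples. Total body irradiation with 4 Gy followed 2 weeks later in the irradiated groups, and their marrow was taken 7 days after it. Each non-irradiated library, control or Vegfc-deleted, pooled 3 mice, and each irradiated one pooled 2 mice, while the labels elsewhere give 3 mice of either genotype as irradiated. With 1 library in a group there was no replicate and no test, and genotype or irradiation cannot be told apart from the library. All intervals are exact 95% intervals and cover counting error only.

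T cells recognise peptides held by other cells through a rearranged receptor of alpha and beta, or gamma and delta, chains, which signals through CD3. NK cells lack a rearranged receptor and kill by balancing germline-encoded activating receptors, such as NKp46 (Ncr1), against inhibitory ones, such as the Ly49 family (Klra genes) that binds class I molecules. Marrow is where NK cells develop and where memory T cells settle, and both kinds of cell carry CD45, the product of Ptprc, at the surface. The sort kept cells negative for CD45, lineage markers and Ter119, so the T and NK cells here are those that passed that gate.

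Upstream sequences are shown for 5 genes because the choice of cells or their classes rests on their transcripts: Cd3d and Cd3e of the T side, Ncr1 and Klrb1c of the NK side, and Nkg7, which both sides carry. Each run covers 250 bases before the RefSeq transcription start on GRCm38.p6, 5′ to 3′ on the gene's strand. Capitals mark TGTGGT or its reverse complement ACCACA, a core of the motif of RUNX factors, and GGTGTGA or its reverse complement TCACACC, a core of the motif of T-box factors. The windows are chr7:4337474-4337723 for Ncr1 (plus strand, the second of 2 listed starts), chr6:128788642-128788891 for Klrb1c (minus strand), chr7:43436888-43437137 for Nkg7 (plus strand), chr9:44981536-44981785 for Cd3d (plus strand) and chr9:45009612-45009861 for Cd3e (minus strand).

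Ncr1: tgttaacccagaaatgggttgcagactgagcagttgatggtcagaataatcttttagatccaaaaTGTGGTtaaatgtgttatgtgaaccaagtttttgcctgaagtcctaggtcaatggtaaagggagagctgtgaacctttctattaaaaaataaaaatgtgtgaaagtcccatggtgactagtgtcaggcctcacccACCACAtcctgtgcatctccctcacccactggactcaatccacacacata
Klrb1c: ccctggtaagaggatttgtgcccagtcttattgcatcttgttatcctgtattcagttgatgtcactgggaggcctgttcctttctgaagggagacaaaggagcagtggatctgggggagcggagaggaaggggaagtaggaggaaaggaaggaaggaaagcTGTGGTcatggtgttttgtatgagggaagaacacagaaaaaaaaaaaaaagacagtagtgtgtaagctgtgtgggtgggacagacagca
Nkg7: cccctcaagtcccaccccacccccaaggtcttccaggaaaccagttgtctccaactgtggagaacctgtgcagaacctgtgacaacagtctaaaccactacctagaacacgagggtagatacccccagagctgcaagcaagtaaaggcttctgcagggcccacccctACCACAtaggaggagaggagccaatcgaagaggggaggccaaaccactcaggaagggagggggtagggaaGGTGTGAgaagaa
Cd3d: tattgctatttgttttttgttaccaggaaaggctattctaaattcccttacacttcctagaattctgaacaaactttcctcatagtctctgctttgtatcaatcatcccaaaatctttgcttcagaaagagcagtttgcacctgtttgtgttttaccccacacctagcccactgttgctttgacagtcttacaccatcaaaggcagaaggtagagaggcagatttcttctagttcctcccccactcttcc
Cd3e: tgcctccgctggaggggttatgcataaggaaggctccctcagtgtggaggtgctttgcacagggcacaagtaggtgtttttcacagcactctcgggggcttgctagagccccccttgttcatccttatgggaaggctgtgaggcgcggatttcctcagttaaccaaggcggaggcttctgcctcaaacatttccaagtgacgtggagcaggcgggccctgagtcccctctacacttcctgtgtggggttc

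The RUNX core was in 14% of 32851 RefSeq windows of this length and the T-box core in 3.33%, counting both strands. Ncr1 held 2 RUNX matches, Klrb1c held 1, and Nkg7 held 1 of each motif. No match of either motif was found in the windows of Cd3d, Cd3e and Cd3g. Of the 7 NK receptor genes used below, 4 of 11 listed starts held a RUNX match, all from Ncr1, Klrb1c and Klre1. The 2 listed starts of Ncr1 have overlapping windows that hold the same 2 matches, so they are not separate. A match is a string of letters in the window, not a measured site.

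The libraries held 5134 to 7737 barcodes and 54462123 to 77284922 UMIs, of which 3975 to 5537 barcodes were kept as cells. The median T and NK cell had 7428.5 UMIs in non-irradiated Vegfc-deleted, 9066 in irradiated control and 7075 in irradiated Vegfc-deleted marrow, and the single cell of the non-irradiated control had 6499. Counts given for 4 libraries below begin with the non-irradiated control and keep that order. Cell barcodes were shared between libraries, 117 between the 2 non-irradiated libraries and 13 to 24 between the others. A single T or NK cell of the non-irradiated Vegfc-deleted library had a barcode that also occurred in the non-irradiated control library, and no barcode was a T or NK cell in 2 libraries. In this order, doublet scoring marked 1 of 1, 4 of 42, 1 of 36 and 6 of 330 of the cells. Some cells carried genes of another lineage beside the T and NK genes (at least 5 UMIs of a macrophage, class II, megakaryocyte, stromal or primary granule set, or 4 of an erythroid set). There were 0 of 1, 5 of 42, 6 of 36 and 68 of 330 such mixed-marker cells, and 54 of the 68 carried macrophage genes. Counts without them are given beside the gene lists they change.

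The T and NK share was highest in irradiated Vegfc-deleted marrow. It was 0.0186% (0.00047 to 0.103) in non-irradiated control marrow (1 of 5383 cells), 0.759% (0.547 to 1.02) in non-irradiated Vegfc-deleted marrow (42 of 5537), 0.906% (0.635 to 1.25) in irradiated control marrow (36 of 3975) and 7.78% (7.00 to 8.63) in irradiated Vegfc-deleted marrow (330 of 4239). The middle 2 libraries overlapped in their intervals, and the other 2 stood apart on either side. Irradiated Vegfc-deleted marrow had 8.60 times (6.08 to 12.5) the share of irradiated control marrow and 10.3 times (7.43 to 14.5) that of non-irradiated Vegfc-deleted marrow. The only cell of the non-irradiated control was marked as a doublet. It carried 3 UMIs of Cd3e, 3 of Cd3d, 6 of Trbc2, 1 of Nkg7 and 4 of Klrb1c.

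These shares are shares of the sorted fraction, which differed in its other cells. Erythroid cells (4 or more UMIs from at least 2 genes of an erythroid set) were 44.7%, 42.5%, 14.3% and 9.58% of kept cells in the same order, and cells rich in S100a8 and S100a9 were 3.20%, 9.34%, 4.58% and 31.9%. Cells with any Ptprc UMI were 19.1%, 29.9%, 19.2% and 62.3%. Counted over Ptprc-positive cells alone, an alternative chosen after seeing the data, the T and NK share was 0.0971%, 2.54%, 4.59% and 12.3%. On that base irradiated Vegfc-deleted marrow had 2.67 times (1.88 to 3.90) the share of irradiated control marrow and 4.83 times (3.49 to 6.83) that of non-irradiated Vegfc-deleted marrow. How the sort contributed to these shares was not tested. Ptprc itself had a UMI in 1 of 1, 42 of 42, 35 of 36 and 324 of 330 T and NK cells, at 1693, 1298, 1566 and 1717 CPM (UMIs per 1e+06 UMIs of those cells).

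The median cell carried 37, 34.5, 42 and 38 UMIs of the 8 marker genes, far from the minimum of 4. Exactly 4 UMIs were found in 0, 2, 1 and 5 of the chosen cells. Just outside, 1, 0, 2 and 7 cells had 3 UMIs, and 12, 43, 3 and 19 cells had 4 or more UMIs from a single gene. Genes of other lineages removed 4, 3, 11 and 29 further cells, of which the S100a8 and S100a9 limit removed 1, 1, 3 and 17.

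T and NK transcripts were next read separately with genes beyond the choice. A T score summed UMIs of Cd3d, Cd3e, Cd3g and Trac (the alpha chain constant region), and an NK score summed Ncr1, Klrb1c, Klre1, Klra4, Klra7, Klra8 and Klra9, all NK receptor genes. Cells with a T score of at least 2 and an NK score of at most 1 formed the T class, the reverse formed the NK class, cells with at least 2 of each formed the both class, and the rest the neither class. The scores are a range of counts, not sorted types, and they share Cd3d, Cd3e, Cd3g and Klrb1c with the rule that chose the cells.

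**Figure D1:**
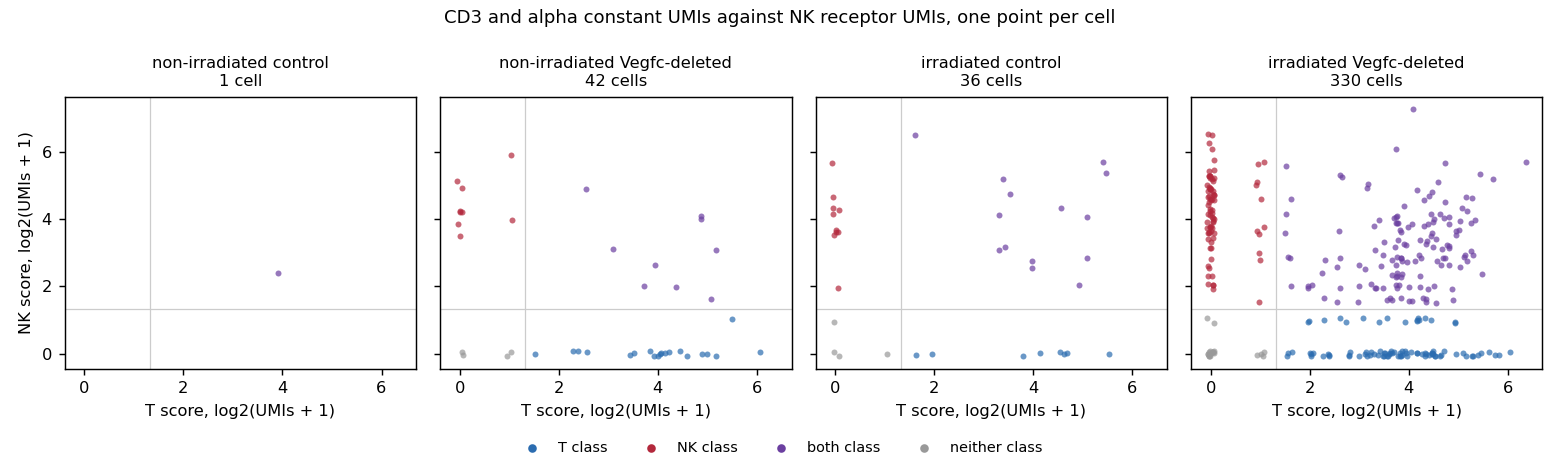
T score against NK score, each as log2(UMIs + 1), with 1 point per T or NK cell and 1 panel per library. Grey lines mark the limit of 2 UMIs, points are slightly jittered, and the irradiated Vegfc-deleted panel (330 cells) shows a dense group with both scores above the limit.

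The irradiated Vegfc-deleted library held 89 cells of the T class (27.0% of its T and NK cells, 22.3 to 32.1), 81 of the NK class (24.5%, 20 to 29.6), 141 of the both class (42.7%, 37.3 to 48.3) and 19 of the neither class (5.76%). The irradiated control library held 8 T (22.2%, 10.1 to 39.2), 10 NK (27.8%), 14 both (38.9%, 23.1 to 56.5) and 4 neither. The non-irradiated Vegfc-deleted library held 20 T (47.6%, 32.0 to 63.6), 9 NK (21.4%), 9 both (21.4%, 10.3 to 36.8) and 4 neither. At full depth the T class was thus the largest class in the non-irradiated Vegfc-deleted library, and the both class was the largest in each irradiated library. As a share of all kept cells, every class was highest in irradiated Vegfc-deleted marrow. The T, NK and both classes stood there at 2.1% (1.69 to 2.58), 1.91% (1.52 to 2.37) and 3.33% (2.81 to 3.91).

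The both class depends on depth. Its median cell had 7845 UMIs in irradiated Vegfc-deleted marrow, against 6248 in the T class and 6842 in the NK class. After each cell was thinned to 1500 UMIs, which left out 3, 3 and 5 shallower cells of the 3 larger libraries, the both share was 7.69% in non-irradiated Vegfc-deleted, 18.2% in irradiated control and 16.6% in irradiated Vegfc-deleted marrow. The thinned T shares were 56.4%, 33.3% and 34.8% and the NK shares 23.1%, 21.2% and 26.2%, so the T class was then the largest in all 3 libraries. At full depth the median both cell of irradiated Vegfc-deleted marrow had a T score of 15 and an NK score of 7. Of its 141 cells, 10 had a T score of 2 or 3, 32 had an NK score of 2 or 3, and 3 were marked as doublets. Mixed-marker cells were 21 of 89 T, 13 of 81 NK, 25 of 141 both and 9 of 19 neither cells there.

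**Figure D2:**
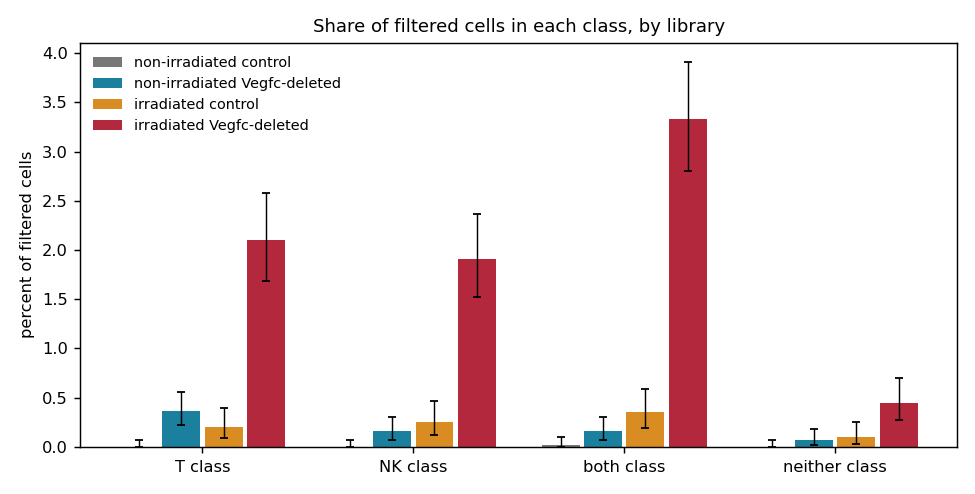
Percent of kept cells in the T, NK, both and neither classes, with 1 bar per library and exact 95% binomial intervals. The irradiated Vegfc-deleted bars, at 2.1%, 1.91%, 3.33% and 0.448%, are the highest of each set of 4.

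In the irradiated Vegfc-deleted library the 3 classes differed in receptor, killer and homing genes beyond those of the scores. Free RNA was gauged in the 406 erythroid cells of that library, whose median was 9240.5 UMIs. A 0 among 89 T, 81 NK, 141 both or 406 erythroid cells allows a share of up to 4.06%, 4.45%, 2.58% or 0.904% (exact upper bounds). Trac, a score gene, had a UMI in 60.7% of T cells (49.7 to 70.9), 1.23% of NK cells, 65.2% of both cells and 0% of erythroid cells. Bcl11b, a transcription factor needed for T cell commitment, was found in 71.9%, 8.64% and 47.5%, against 0.246% of erythroid cells. Cd5, a brake on T cell receptor signals, was found in 37.1%, 0% and 19.9%. After thinning, Bcl11b stood at 27.6%, 5% and 19.9%, and Cd5 at 13.8%, 0% and 6.38%. Bcl11b and Cd5, which served neither the choice nor the scores, were thus found in T and both cells and in few or no NK cells.

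Constant region transcripts of the beta and delta chains were not limited to the T side. Trbc1 had a UMI in 47.2% of T cells, 79.0% of NK cells and 54.6% of both cells, while its level was 568, 371 and 413 CPM and its thinned shares were 35.6%, 35.0% and 29.8%, so no order of the classes can be read from it. Trbc2 was in 86.5%, 54.3% and 92.2%, and after thinning in 65.5%, 33.8% and 70.9%. Trdc, the delta chain constant region, was in 18%, 32.1% and 27.0% of cells but stood at 228, 63.7 and 234 CPM, with thinned shares of 13.8%, 11.2% and 13.5%. Each of the 3 genes was in at most 1.48% of erythroid cells, and Trdc in 0.739%. Trbc1 and Trbc2 are genes of the rule, so their presence in the classes partly describes the choice. Transcripts of constant regions without a rearranged receptor are known from NK cells. No NK cell had 2 Trdc UMIs together with a gamma constant gene and no Trac, a combination seen in 14.6% of T cells (13 of 89) and 12.8% of both cells (18 of 141). The NK class allows at most 1 UMI of the CD3 genes and Trac, so its lack of such cells follows partly from its definition.

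Variable gene segments were caught in few cells. In the irradiated Vegfc-deleted library 26 of 330 cells had a UMI of a beta V segment, spread over 15 segments, and 19 had an alpha V segment, over 16 segments. No segment was seen in more than 4 cells for beta or 2 cells for alpha, and no cell had more than 1 segment of a kind. Beta V segments were in 11.2% of T cells (10 of 89), 11.3% of both cells (16 of 141), 0 of 81 NK cells (upper bound 4.45%) and 0 of 406 erythroid cells. Trgv2, the only gamma V segment counted, was in 12 T cells (13.5%), 29 both cells (20.6%, 14.2 to 28.2) and no NK cell. Alpha V segments were in 5 T cells (5.62%), 2 NK cells (2.47%, 0.300 to 8.64), 12 both cells (8.51%) and 1 erythroid cell (0.246%). Segments named for the delta chain alone were in no T cell, 8 NK cells (9.88%, 4.36 to 18.5), 6 both cells (4.26%, 1.58 to 9.03) and no erythroid cell. Segments named for alpha and delta alike were counted as alpha, among them Trav13-4-dv7 in 2 T cells and Trav4-4-dv10 in 1 NK cell. A delta V segment was also in 9 of 2405 and 12 of 2351 erythroid cells of non-irradiated control and non-irradiated Vegfc-deleted marrow. The NK class was thus without beta V and Trgv2 transcripts but not without those of every chain. In the non-irradiated Vegfc-deleted library 8 of 42 cells had a beta V segment, over 5 segments, and in irradiated control 3 of 36, over 3. The T and both cells of irradiated Vegfc-deleted marrow thus showed many segments at 1 to 4 cells each at this depth.

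On the NK side, Ncr1 had a UMI in 0% of T cells, 93.8% of NK cells (86.2 to 98) and 29.8% of both cells (22.4 to 38.1). Klrb1c was found in 7.87%, 93.8% and 80.1%, and Klre1, an NK receptor that pairs with other lectin-like chains, in 6.74%, 87.7% and 77.3%. These 3 genes are score genes, and each was in at most 0.739% of erythroid cells. Outside the scores, Fcer1g, an adaptor of activating receptors, was in 34.8%, 97.5% and 83.7%, with a higher background of 16.5% in erythroid cells. Tyrobp, the DAP12 adaptor, was in 32.6%, 100% and 65.2% against 19.2%. Thinning left Tyrobp in 17.2%, 90.0% and 39.0% of T, NK and both cells and in 3.94% of erythroid cells.

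Some members of the Ly49 family differed between the NK and both classes, and others did not. Any of 11 Ly49 genes was found in 13 of 89 T cells (14.6%), 57 of 81 NK cells (70.4%), 107 of 141 both cells (75.9%) and 2.22% of erythroid cells, and 46 NK and 84 both cells had 2 or more of them. Klra4 (Ly49D, an activating member) had a UMI in 34.6% of NK cells (24.3 to 46.0) and 4.26% of both cells (1.58 to 9.03). Klra8 (Ly49H, which binds a viral protein) was in 32.1% (22.2 to 43.4) and 3.55% (1.16 to 8.08). Klra1 (Ly49A) went the other way, with 9.88% (4.36 to 18.5) of NK cells and 36.2% (28.3 to 44.7) of both cells, as did Klra6 with 4.94% (1.36 to 12.2) and 32.6% (25 to 41.0). Klra7 (Ly49G) was close in the 2 classes, at 53.1% and 56.0%. Klra4, Klra7 and Klra8 are score genes, while Klra1 and Klra6 are not. Klra3, also outside the scores, showed no such difference, with 12.3% (6.08 to 21.5) of NK cells and 16.3% (10.6 to 23.5) of both cells. Thinned to 1500 UMIs, Klra1 was in 5% of NK and 19.9% of both cells, and Klra6 in 2.5% and 14.2%. Ly49 genes are close copies of each other, so counts can be split among them.

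**Figure D3:**
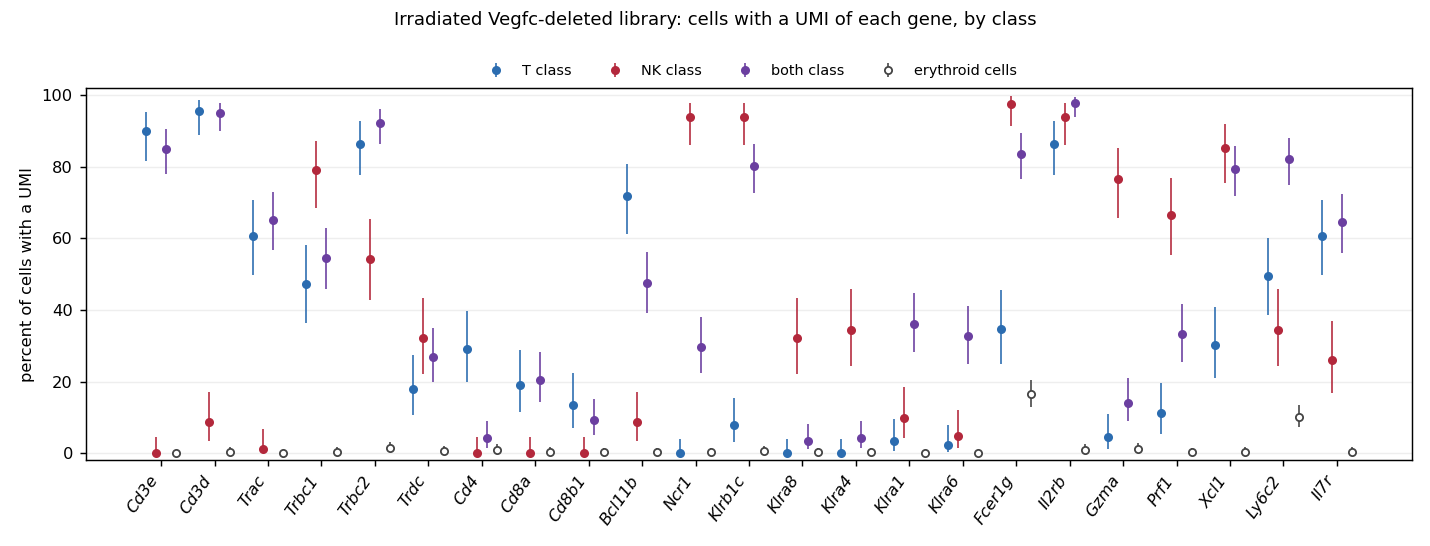
Percent of cells with a UMI of each gene in the T, NK and both classes and in erythroid cells of the irradiated Vegfc-deleted library, with exact 95% binomial intervals. Cd3e, Cd3d and Trac are score genes that define the classes, Bcl11b is at 71.9% in T and 47.5% in both cells, Gzma is at 76.5% in NK cells against 14.2% in both cells, and Klra1 and Klra6 are highest in both cells.

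Killer genes were highest in the NK class. Gzma, a granule protease, stood at 19.9 CPM in T cells, 3129 CPM in NK cells and 286 CPM in both cells, with a UMI in 4.49%, 76.5% (65.8 to 85.2) and 14.2% (8.88 to 21.1) of cells and in 1.23% of erythroid cells. Prf1, the pore-forming perforin, was in 11.2%, 66.7% and 33.3%, and Gzmb, another granule protease, in 24.7%, 64.2% and 47.5%. Thinning gave Prf1 in 5.75%, 45.0% and 7.09%, and Gzmb in 10.3%, 33.8% and 20.6%. The chemokine Xcl1, a dendritic cell attractant, was in 30.3%, 85.2% and 79.4%, and Ifng, the gene for interferon-gamma, in 32.6%, 54.3% and 50.4%. Their thinned shares were 14.9%, 57.5% and 48.2% for Xcl1 and 16.1%, 22.5% and 14.9% for Ifng. Thus the both class was near the NK class for Xcl1 and well under it for Gzma and Prf1.

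Memory and homing genes differed in which class held them most often. Ly6c2, a surface protein of memory CD8 T cells and myeloid cells, was in 49.4% of T, 34.6% (24.3 to 46.0) of NK and 82.3% (74.9 to 88.2) of both cells, with 10.1% of erythroid cells. Its thinned values were 41.4%, 26.2%, 70.2% and 1.48%. Il7r, a receptor for a lymphocyte survival cytokine, was in 60.7%, 25.9% and 64.5%, and thinned in 42.5%, 5% and 34.8%. The NK class was thus low in Il7r, and the both class was near the T class for it. Cxcr6, a tissue homing receptor, was in 43.8% (33.3 to 54.7), 12.3% and 25.5%, and thinned in 19.5%, 6.25% and 8.51%. Eomes, a transcription factor of NK and memory T cells, was in 25.8%, 60.5% and 41.8%, and Tbx21 (T-bet) in 22.5%, 43.2% and 48.9%. Their thinned shares were 9.20%, 21.2% and 13.5% for Eomes and 5.75%, 11.2% and 11.3% for Tbx21.

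CD4 and CD8 transcripts divided the T class further. In irradiated Vegfc-deleted marrow 26 of 89 T cells had Cd4 without Cd8 (29.2%, 20.1 to 39.8), 17 had Cd8a or Cd8b1 without Cd4 (19.1%, 11.5 to 28.8), and none had both. In non-irradiated Vegfc-deleted marrow the counts were 2 of 20 (10%, 1.23 to 31.7) and 11 of 20 (55%, 31.5 to 76.9), and in irradiated control marrow 1 of 8 and 5 of 8. The CD8 share of the T class was lower in irradiated Vegfc-deleted marrow than in non-irradiated Vegfc-deleted marrow, with intervals that did not overlap and median depths of 6248 and 6530.5 UMIs. Among its both cells 30 of 141 had Cd8 transcripts (21.3%), of which 17 had Cd8a without Cd8b1, and 6 had Cd4. Foxp3, the regulatory T cell factor, had a UMI in 2 of 42, 1 of 36 and 8 of 330 cells of the 3 libraries, all 8 of the last in the T class. Il17a had no UMI in any of the 409 cells.

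The 19 neither cells of irradiated Vegfc-deleted marrow carried mostly rule genes, with Nkg7 in 78.9% and Trbc2 in 73.7%. Gata3, a factor of T cells and type 2 innate lymphoid cells, was in 57.9% (33.5 to 79.7), and Il7r in 63.2%. Il1rl1, the interleukin-33 receptor, was in 42.1% (20.3 to 66.5) against 27.1% of erythroid cells, and after thinning in 35.3% against 3.69%. The p53 target Cdkn1a was in 78.9% (54.4 to 93.9), above the 44.7% to 47.2% of the other classes. Of the 19 cells 9 were mixed-marker cells (47.4%), a larger part than in the other classes, and these shares include them.

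The 2 library pairs with at least 20 cells on each side were compared gene by gene over the summed UMIs. The first was irradiated Vegfc-deleted over irradiated control (the genotype pair), and the other was irradiated over non-irradiated Vegfc-deleted (the irradiation pair). They share the irradiated Vegfc-deleted library. A gene was compared if the pooled rate gave at least 10 expected UMIs in the smaller library, and differences of at least 2-fold are counted. Log2 ratios use a prior of 0.5 UMIs. In the genotype pair 194 of 5104 genes (3.8%) were at least 2-fold higher and 99 (1.94%) lower, with a median log2 ratio of -0.03. In the irradiation pair 425 of 5388 (7.89%) were higher and 166 (3.08%) lower, with a median of 0.11. Within the T class alone the irradiation pair gave 400 of 2668 higher (15%) and 112 lower (4.2%), with a median of 0.14. The other classes had too few cells in 1 library. Without mixed-marker cells the irradiation pair had 375 of 3932 genes higher (9.54%) and 2.98% lower, with a median of 0.14, and the genotype pair 145 of 3788 higher (3.83%) and 0.95% lower, with a median of -0.01.

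The p53 targets, which stop the cell cycle or trigger death after DNA damage, were higher in the irradiation pair. Of 15 compared, 10 were at least 2-fold higher and none lower, beside 7.89% and 3.08% of all genes. The median log2 ratio was 1.5, beside 0.11 for all genes. Without mixed-marker cells 9 were higher and 1 lower of 13, with a median of 1.47 beside 0.14 for all genes. Within the T class 3 of 6 were higher, beside 15% of all genes. Cdkn1a, the cell cycle inhibitor p21, stood at 17.1 CPM (7 UMIs, in 5 of 42 cells) in non-irradiated Vegfc-deleted, 224 CPM (18 of 36 cells) in irradiated control and 271 CPM (158 of 330 cells) in irradiated Vegfc-deleted marrow. Both irradiated libraries were high and did not overlap with the non-irradiated one. The log2 ratio was 3.89 (2.94 to 5.30) in the irradiation pair and 0.27 (-0.05 to 0.62) in the genotype pair. In the T class Cdkn1a had 0 UMIs without irradiation and 215 CPM with it, at least 12.2-fold higher when the 0 is set to a floor of 3 UMIs. Erythroid cells of the irradiated Vegfc-deleted library had Cdkn1a at 48.5 CPM.

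Phlda3, an inhibitor of the Akt kinase, had 0 UMIs in the non-irradiated library, 13 (35.2 CPM) in irradiated control and 176 (58.8 CPM) in irradiated Vegfc-deleted marrow, at least 8.01-fold higher in the irradiation pair against a floor of 3 UMIs. Zmat3, an RNA-binding protein, stood at 2.45 (1 UMI), 51.4 and 47.1 CPM, a log2 ratio of 3.69 (1.77 to 9.58). Bax, which opens the mitochondrial membrane in cell death, stood at 100, 222 and 289 CPM, a log2 ratio of 1.51 (1.07 to 2.02). Ccng1 (cyclin G1) had 61.2, 184 and 177 CPM, Aen (a nuclease) 4.90, 32.4 and 42.1 CPM, and Ei24 19.6, 64.9 and 67.2 CPM. For each of these genes the 2 irradiated libraries lay on the same side, and in the genotype pair none of the 15 targets differed by 2-fold (median 0.16). Mdm2, the p53 ubiquitin ligase, had 49.0, 89.2 and 71.2 CPM and was under 2-fold. Btg2, an antiproliferative factor that is also induced by T cell stimulation, ran against the list at 507, 230 and 257 CPM, with a log2 ratio of -0.98 (-1.20 to -0.75) and of -1.41 (-1.66 to -1.15) without mixed-marker cells.

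**Figure D4:**
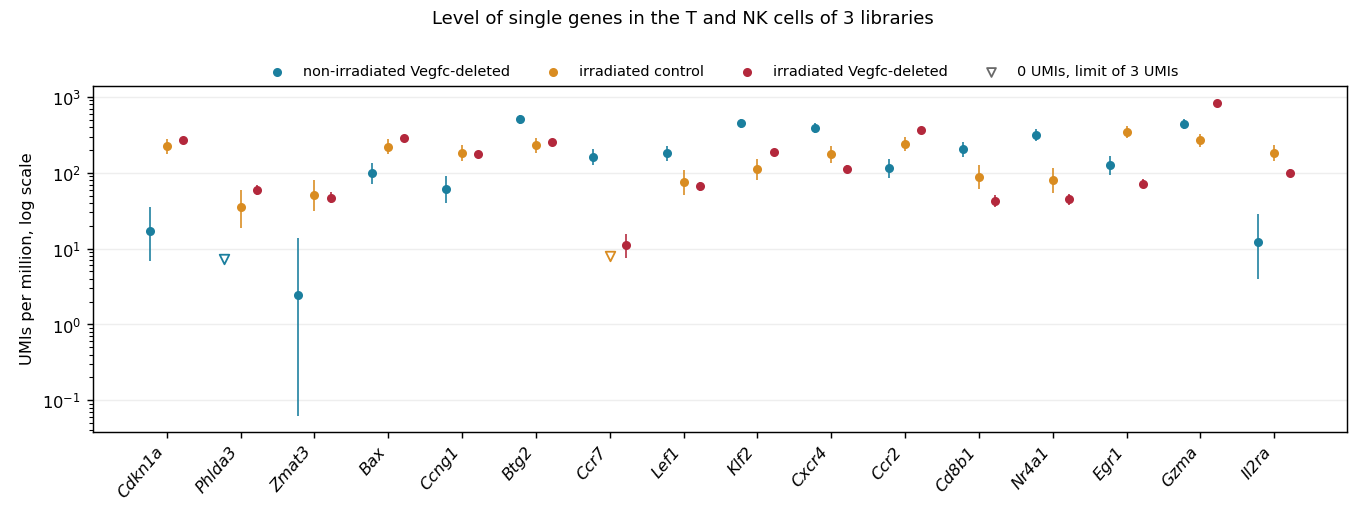
CPM (log scale) of 16 genes in the T and NK cells of 3 libraries, with exact 95% Poisson intervals. Open triangles mark genes with 0 UMIs at the level of 3 UMIs. Cdkn1a, Phlda3 and Zmat3 are high in both irradiated libraries, Ccr7 and Nr4a1 are highest without irradiation, and Gzma is highest in irradiated Vegfc-deleted marrow.

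Genes of naive and circulating T cells were lower in the irradiation pair. Of 13 genes of the naive and memory list, 5 were at least 2-fold lower and none higher (median -0.63). Over all genes 3.08% were lower and 7.89% higher. Ccr7, the receptor that guides naive T cells into lymph nodes, stood at 164 CPM (16 of 42 cells) in non-irradiated Vegfc-deleted marrow, 0 UMIs in irradiated control and 11 CPM (27 of 330 cells) in irradiated Vegfc-deleted marrow, a log2 ratio of -3.88 (-4.54 to -3.27). Lef1, a factor of naive T cells, stood at 181, 75.7 and 66.2 CPM, a log2 ratio of -1.46 (-1.84 to -1.05). Klf2, a factor that keeps T cells quiescent and in circulation, stood at 448, 111 and 189 CPM, a log2 ratio of -1.25 (-1.49 to -0.99). S1pr1, the exit receptor under Klf2, stood at 97.9, 48.7 and 43.8 CPM. All 4 were lower in both irradiated libraries than in the non-irradiated one, and only the intervals of S1pr1 in irradiated control (28.8 to 76.9) and non-irradiated marrow (70.0 to 133) overlapped. Igfbp4, the fifth, had 54 UMIs in only 3 of 42 non-irradiated cells and changed sign without doublets, to 4.36, and without mixed-marker cells, to 3.55.

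The same genes within the T class gave a log2 ratio of -4.08 (-5.12 to -3.24) for Ccr7, -2.30 (-2.92 to -1.70) for Lef1 and -1.79 (-2.18 to -1.39) for Klf2. S1pr1 was -1.39 there and 0.34 after thinning.

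CD8 genes were lower in irradiated Vegfc-deleted marrow in each pair. Cd8b1, the CD8 beta chain, stood at 206 CPM in non-irradiated Vegfc-deleted, 89.2 CPM in irradiated control and 42.8 CPM in irradiated Vegfc-deleted marrow, and Cd8a at 103, 103 and 45.1 CPM. The log2 ratios of Cd8b1 were -1.08 (-1.62 to -0.46) in the genotype pair and -2.27 (-2.67 to -1.85) in the irradiation pair. Cd4 was thinly covered, at 12.2, 18.9 and 20.1 CPM over all cells. In the T class its log2 ratio in the irradiation pair was 1.55 (0.26 to 3.63), from 4 UMIs without irradiation and 50 with it. Of the CD3 and receptor chain list, none of 13 genes compared in the genotype pair (median -0.21) and none of 15 in the irradiation pair (median -0.43) differed by 2-fold, beside medians of -0.03 and 0.11 for all genes. The list holds Cd3e, Cd3d, Cd3g, Trbc1 and Trbc2, genes of the rule, so close levels between libraries partly describe the choice. In the irradiation pair 1 of 13 was at least 2-fold lower without mixed-marker cells, and 1 of 15 within the T class.

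Homing and residency genes were mixed in the irradiation pair. Of 12, 3 were at least 2-fold higher and 2 lower, beside 7.89% and 3.08% of all genes. Without mixed-marker cells 1 was higher and 2 were lower. Within the T class 6 were higher and 2 lower, beside 15% and 4.2% of all genes. Cxcr4, which retains cells in marrow, stood at 394, 176 and 112 CPM in non-irradiated Vegfc-deleted, irradiated control and irradiated Vegfc-deleted marrow, a log2 ratio of -1.81 (-2.09 to -1.53). Ccr2, an inflammatory chemokine receptor, stood at 115, 241 and 362 CPM, a ratio of 1.64 (1.23 to 2.11). Cxcr6 stood at 44.1, 86.5 and 101 CPM, a log2 ratio of 1.16 (0.52 to 1.98) that was 0.84 without mixed-marker cells. S100a4, a calcium-binding protein of effector and memory cells, stood at 66.1, 576 and 608 CPM, a log2 ratio of 3.17 (2.66 to 3.81). With mixed-marker cells kept, Cxcr4 was thus lower, and Ccr2 and S100a4 higher, in both irradiated libraries. Ccr2 also belongs to the macrophage marker list, of which 9 of 9 compared genes were higher in this pair. Cells with macrophage genes were 0 of 42, 4 of 36 and 54 of 330 in the same order. The Ccr2 levels given here do not separate them out.

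NK receptors were higher in the irradiation pair for 5 of 14 genes and lower for none, beside 7.89% and 3.08% of all genes. Their median was 0.69, beside 0.11 for all genes. The 14 include Klrb1c and Il2rb, genes of the rule, so the count and median partly describe the choice. Klra9 (Ly49I) stood at 9.79 (4 UMIs), 116 and 75.6 CPM, a log2 ratio of 2.78 (1.57 to 4.84), and Klra1, outside that list, at 17.1, 86.5 and 99.3 CPM, a ratio of 2.44 (1.47 to 3.86). Klra7 was level at 191, 235 and 218 CPM, and Ncr1 at 120, 130 and 163 CPM. The T class was 47.6% of cells without irradiation and 27.0% with it, so gene levels over all cells also carry that difference in makeup. Without mixed-marker cells 4 of 14 were higher (median 0.42), and Klra8 was no longer among them, with a log2 ratio of 1.07 that became 0.54. In the genotype pair none of the 14 NK receptors differed by 2-fold over all cells, while without mixed-marker cells 1 was lower, Klra8, with a log2 ratio of -0.86 that became -1.34.

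**Figure D5:**
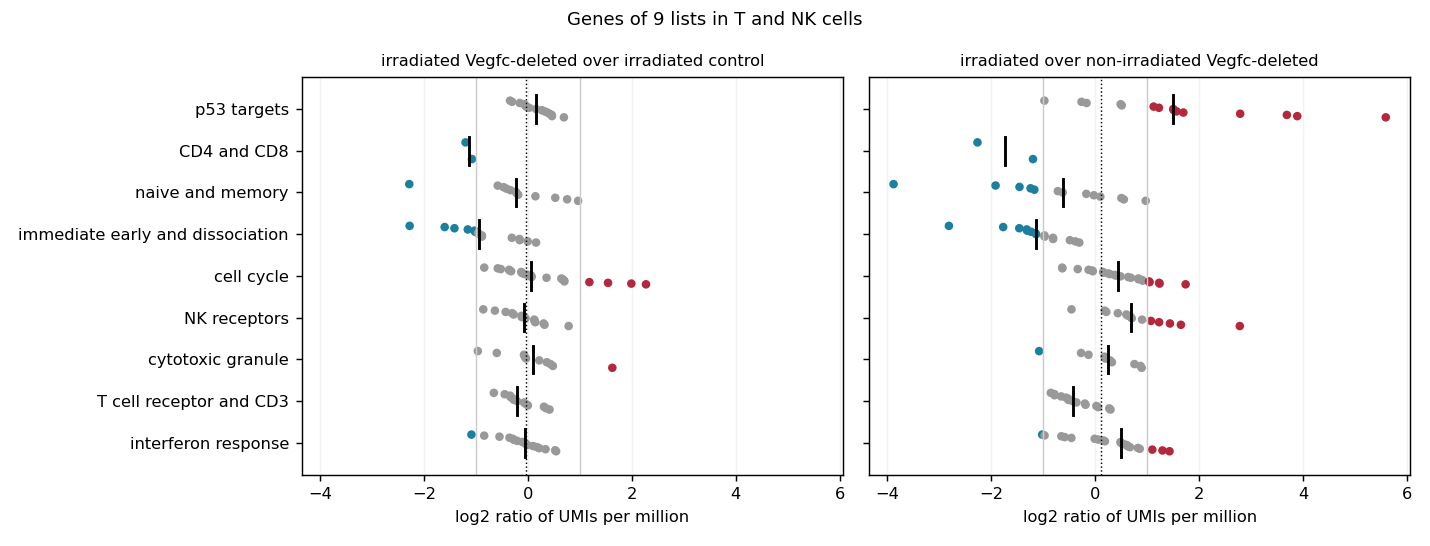
Log2 ratio of each compared gene of 9 lists in the genotype pair (left) and the irradiation pair (right), over all T and NK cells. Red and blue points are at least 2-fold higher or lower, black bars are list medians, and the dotted line is the median of all genes. Of the p53 targets 10 of 15 are red in the irradiation pair and 0 of 15 in the genotype pair, and the immediate early genes have medians of -1.14 and -0.94.

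Gzma was the cytotoxic gene that differed in the genotype pair. It stood at 446 CPM (13 of 42 cells) in non-irradiated Vegfc-deleted, 268 CPM (6 of 36 cells) in irradiated control and 829 CPM (87 of 330 cells) in irradiated Vegfc-deleted marrow. The log2 ratio was 1.62 (1.34 to 1.94) in the genotype pair and 0.89 (0.68 to 1.12) in the irradiation pair. Within the NK class it stood at 1615 CPM (9 of 9 cells), 728 CPM (5 of 10 cells) and 3129 CPM (62 of 81 cells). The other 9 cytotoxic genes compared were within 2-fold in the genotype pair. Ccl5, a chemokine of effector and memory cells, stood at 6172, 3751 and 3291 CPM, a log2 ratio of -0.91 in the irradiation pair and -1.29 within the T class.

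Immediate early genes were lower in irradiated Vegfc-deleted marrow in each pair. They answer stimulation or tissue digestion within minutes. Of 15, 8 were at least 2-fold lower in the irradiation pair (median -1.14), beside 3.08% of all genes. In the genotype pair 6 were lower (median -0.94), beside 1.94% of all genes. None was higher in either pair. Nr4a1, induced by T cell receptor signals, stood at 313, 81.1 and 44.5 CPM in non-irradiated Vegfc-deleted, irradiated control and irradiated Vegfc-deleted marrow, a log2 ratio of -2.82 (-3.18 to -2.46) in the irradiation pair. Junb, a subunit of the AP-1 factor, stood at 1689, 1387 and 681 CPM, with ratios of -1.03 (-1.17 to -0.88) in the genotype pair (-0.93 without mixed-marker cells) and -1.31 (-1.44 to -1.18) in the irradiation pair. Egr1, a zinc finger factor, stood at 125, 346 and 71.5 CPM, with -2.28 (-2.60 to -1.95) in the genotype pair and -1.18 (-1.73 to -0.56) without mixed-marker cells. Without those cells the genotype pair had 3 of 14 immediate early genes at least 2-fold lower (median -0.51) and the irradiation pair 7 of 14 (median -1.05). Within the T class the irradiation pair had 2 of 14 lower (median -0.36), beside 4.2% of all genes, and 5 of 11 (median -0.78) without mixed-marker cells. When the 2668 genes compared in the full T class were kept, 127 of them were lower without those cells. Tnfaip3, a brake on inflammatory signalling, stood at 441, 419 and 141 CPM, lower in irradiated Vegfc-deleted marrow than in either other library.

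Of 9 activation and checkpoint genes, 1 was at least 2-fold higher and 3 were lower in the irradiation pair (median -0.45). Over all genes 7.89% were higher and 3.08% lower. The counts of the list were the same without mixed-marker cells. Within the T class 2 of 8 were higher and 2 lower, beside 15% and 4.2% of all genes. In the genotype pair none of 8 differed by 2-fold over all cells, against 2 lower without mixed-marker cells. Ctla4, an inhibitory receptor, stood at 166, 32.4 and 24.4 CPM, a log2 ratio of -2.77 (-3.27 to -2.27) in the irradiation pair and -2.27 within the T class. Il2ra, the high-affinity interleukin-2 receptor chain, stood at 12.2 (5 UMIs), 184 and 99.3 CPM, a ratio of 2.88 (1.78 to 4.65). Csf2, the gene for GM-CSF, had 0, 7 and 91 UMIs, at least 4.14-fold higher in the irradiation pair against a floor of 3 UMIs. Both irradiated libraries were above the non-irradiated one for Il2ra and under it for Ctla4. For Csf2 the interval of irradiated control (7.61 to 39.0 CPM) overlapped that of the non-irradiated library (0 to 9.03 CPM).

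Cell cycle genes depended on a few cells. Cells with 5 or more UMIs of Mki67 and Top2a, which mark dividing cells, were 5 of 42 (11.9%, 3.98 to 25.6), 7 of 36 (19.4%, 8.19 to 36.0) and 66 of 330 (20%, 15.8 to 24.7). In irradiated Vegfc-deleted marrow they were 9 of 89 T cells (10.1%, 4.73 to 18.3), 21 of 81 NK cells (25.9%) and 32 of 141 both cells (22.7%, 16.1 to 30.5). Of 24 cell cycle genes, 4 were at least 2-fold higher in the genotype pair, among them Cenpf (90.6, 32.4 and 163 CPM, a log2 ratio of 2.27, 1.51 to 3.29) and Birc5 (108, 83.8 and 193 CPM, 1.18), and 3 of 23 were without mixed-marker cells. With all cells kept, 3.8% of all genes were higher in the genotype pair and 7.89% in the irradiation pair. In the irradiation pair 5 of 24 were higher (median 0.44), and 14 of 23 (median 1.03) without mixed-marker cells, where 9.54% of all genes were higher and their median was 0.14. The non-irradiated library had 3 mixed-marker cells with erythroid genes. Mki67 within the T class changed sign in that step, from a log2 ratio of -1.85 to 3.27, as its 123 non-irradiated UMIs became 2 once the 2 mixed-marker T cells were left out. Mki67 was in 96.6% of the erythroid cells of the irradiated Vegfc-deleted library.

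Genes of other cells moved with some of these results. Neutrophil markers summed to 414 CPM in the T and NK cells of non-irradiated Vegfc-deleted marrow (1 of 12 at 0), 124 CPM in irradiated control (4 of 12 at 0) and 2074 CPM in irradiated Vegfc-deleted marrow. In the genotype pair 8 of 8 compared were at least 2-fold higher (median 3.36), beside 3.8% of all genes. The list holds S100a8 and S100a9, which the rule limits. Cells rich in these 2 genes were 4.58% of kept cells in irradiated control and 31.9% in irradiated Vegfc-deleted marrow. The part of free RNA in these counts was not tested. Macrophage markers summed to 228 CPM (7 of 12 at 0, among them Csf1r, Adgre1 and C1qa), 2685 CPM and 1720 CPM, and 9 of 9 compared were higher in the irradiation pair, beside 7.89% of all genes. Without mixed-marker cells 1 of 3 was. The 8 genes furthest apart upward in the T class of the irradiation pair were class II and macrophage genes, among them H2-Aa with 0 against 554 UMIs, the latter in 12 of 89 cells. LepR stromal markers summed to 355 CPM (2 of 8 at 0), 208 CPM (1 of 8 at 0) and 2077 CPM, of which Col1a1, a collagen chain, gave 12.2, 127 and 2035 CPM. Megakaryocyte markers summed to 1261, 206 and 100 CPM, and 2 of 2 compared were lower in the irradiation pair. Dendritic markers summed to 348, 2339 and 1973 CPM, with 3 of 5 higher in the irradiation pair and 0 of 3 without mixed-marker cells. Mixed-marker cells were picked by macrophage, class II and other lineage genes. The lower macrophage and dendritic counts without them therefore follow partly from that definition and are no separate check. Erythroid markers summed to 10990, 630 and 3668 CPM, and B lineage markers to 176, 224 and 193 CPM with Pax5 at 0 in each. Maf, a factor of macrophages and T cells, was lower in the genotype pair by -1.74 (-1.99 to -1.48) on the log2 scale and by -0.75 without mixed-marker cells. The part of these cells in the other results was not tested beyond leaving them out.

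Vegfc itself had 0 UMIs in all 409 cells, and its receptor Flt4 had 0, 1, 2 and 2 UMIs in the 4 libraries. Over all T and NK cells the VEGF receptor genes were under the level needed for a comparison. The T and NK cells thus gave no reading of the deleted gene, and the sources used here do not say which part of it the deletion removes.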

How the data were processed

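RNA of sorted marrow cells was measured with 10x Genomics 3′ chemistry, 1 library per group. The authors deposited filtered matrices of raw UMI counts per gene and barcode. Cell Ranger 2.1.1 and mm10 are named in the submitters' processing notes, while the file headers name software 3.1.0, and the sources used here do not give the aligner's settings. No cell annotation was used here.

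Barcodes with at least 500 genes and at most 10% mitochondrial UMIs were kept, and T and NK cells were chosen by the stated rule. The members and lists were chosen with earlier results of these data known. Doublets were marked per library with Scrublet (scanpy 1.11.5) and left in. UMI counts were summed per library and divided by the cells' total. Shares have exact binomial, levels exact Poisson and ratios exact conditional 95% intervals, for counting error only, and no p-value was computed. Thinning drew 1500 UMIs per cell and left out shallower cells. Named genes were the rule and score genes, the listed genes with enough counts, and in each pair the 8 highest and 8 lowest by the interval bound nearer to no change. Genes so ranked had UMIs in at least 10 cells and were no lower than in all kept cells. Klra1, Klra3, Klra6 and Trgv2, which no list held, and genes of the other lists (immediate early, activation, innate lymphoid, marker lists of other cells) fall outside this rule and were chosen after their values were seen. Alternatives were TMM scaling (edgeR 4.0.16), the mean over cells, thinning, other filters and other limits. The denominator of Ptprc-positive cells, the omission of mixed-marker cells and the omission of shared barcodes were added after seeing the data. The fold calls were run on simulated sums without spread between cells and with planted changes larger than 2-fold. That run therefore does not vouch for the fold counts given here. Analyses ran in Python 3.11.15 with numpy 2.4.6, scipy 1.17.1 and pandas 2.3.3. Results on some withheld genes are not reported here.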

Additional observations from a re-analysis of the deposited data

Results flagged for a closer look

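T and NK marker transcripts were also found in barcodes that the filters had removed. Of 895 removed barcodes of the irradiated Vegfc-deleted library, 38 met the marker rule (4.25%, 3.02 to 5.78), against 6 of 1175 in irradiated control (0.511%, 0.188 to 1.11), 5 of 2200 in non-irradiated Vegfc-deleted and 1 of 2071 in non-irradiated control marrow. This signal lies outside the cells used above. All 38 had over 10% mitochondrial UMIs, and 6 of them had under 500 genes.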

How the results depend on the processing

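No paired analysis was possible because each group had 1 library. No replicate could be left out for the same reason, and neither the NK class in either pair nor the T class in the genotype pair could be compared, with under 20 cells on a side. Without doublets, and also at a limit of 5% mitochondrial UMIs, the share in non-irradiated control marrow was 0. With erythroid and S100a8- and S100a9-rich cells left out of the denominator, the share was 1.45% in non-irradiated Vegfc-deleted and 13.2% in irradiated Vegfc-deleted marrow. Over Ptprc-positive cells it was 2.54%, 4.59% and 12.3% in non-irradiated Vegfc-deleted, irradiated control and irradiated Vegfc-deleted marrow, with ratios of the last of 2.67 to irradiated control and 4.83 to non-irradiated Vegfc-deleted marrow. Without mixed-marker cells the irradiated Vegfc-deleted share was 6.18%. The both class, thinned, was 7.69%, 18.2% and 16.6% of cells in the same 3 libraries, and the T class was 34.8% in the last, where the both class was 51.2% with a score limit of 1 and 31.2% with a limit of 4. The NK class kept its share within its interval in each of 15 runs on the same cells. That interval was wide in non-irradiated Vegfc-deleted (10.3% to 36.8%) and irradiated control marrow (14.2% to 45.2%), so runs there could hardly leave it.

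In the genotype pair the counts of genes at least 2-fold higher and lower were 325 and 216 by the mean over cells, 990 and 444 after thinning on the same genes and 4439 and 1456 with no count minimum, and 293 were higher without mixed-marker cells. TMM scaling gave 243 and 81, beside 194 and 99. In the irradiation pair 678 were higher by the mean over cells, 652 without doublets and 682 without mixed-marker cells. Thinning gave 1328 and 441 there, and no minimum 4734 and 1854. The T class gave 721 and 234 after thinning and 4663 and 1676 with no minimum. Thinning and a missing minimum test genes at fewer counts by construction, and the cause of the other shifts was not tested. Ratios that changed sign in the genotype pair were Rcbtb2 (-0.43) and Tcrg-C2 (-0.74) after thinning and Cd5l (-0.18) without mixed-marker cells. In the irradiation pair they were Gbp2 (-0.0051) by the mean over cells, Trdc (-0.18) after thinning, and Igfbp4 (4.36 without doublets, 3.55 without mixed-marker cells). In its T class they were Gbp2 (-0.019) by the mean over cells, Fasl (0.34), Zeb2 (-0.048), S1pr1 (0.34) and Cmtm7 (-0.16) after thinning, and Zeb2 (-0.29) and Mki67 (3.27) without mixed-marker cells. The small libraries (42 and 36 cells) limit every comparison.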
